A study of Homo sapiens and Mus musculus with 12 samples.

Results

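The genes described here are 34 human genes of sterol and fatty acid synthesis and their mouse counterparts, named from general knowledge of the pathways. They were chosen with earlier results of these data known, so the shares of them called below are a description and no test. They comprise 18 enzymes that build cholesterol, 8 genes of fatty acid synthesis and desaturation, 5 genes that regulate sterol regulatory element-binding proteins (SREBPs) or carry sterol, and 3 targets of the liver X receptors (LXRs). The mouse list has 35 genes, because human SCD corresponds to mouse Scd1 and Scd2, and mouse Cyp51 was paired by hand with human CYP51A1. Of the 63677 human gene identifiers counted, 33 belonged to these genes, since the identifier that the annotation gives for ACACA, the acetyl-CoA carboxylase, was not among them and no human value is given for it. All 35 mouse genes were among the 47729 mouse identifiers.

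The libraries came from wild-type MDA-MB-231, a human triple-negative breast cancer line, and wild-type 4T1, a mouse mammary carcinoma line. Each line was treated for 24 h with DMSO or with 1 µmol/L ponatinib, an inhibitor of several tyrosine kinases, and each of the 4 groups held 3 libraries, 12 in all. Both lines were grown in medium with 10% fetal bovine serum, which supplies cholesterol and fatty acids from outside. The labels do not say whether libraries of a group came from separate cultures, so p-values measure the spread between these libraries, which may be technical. In bulk RNA, fewer cells of a kind and less RNA per cell cannot be told apart.

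Cholesterol is assembled from acetyl-CoA through mevalonate, squalene and lanosterol, and its synthesis is controlled by SREBPs, transcription factors held in the endoplasmic reticulum membrane by SCAP and INSIG proteins. When sterol falls, SCAP escorts SREBP to the Golgi, where proteases release the active factor. SREBP2, encoded by SREBF2, mainly drives sterol genes, and SREBP1, encoded by SREBF1, mainly drives fatty acid genes, with overlap between them. LXRs respond to oxysterols, raise SREBF1 and the cholesterol exporters ABCA1 and ABCG1, and so report on sterol excess, the opposite signal.

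The 6 libraries of the human line (MDA-MB-231) held 15012884 to 17301760 counts, and the 6 of the mouse line (4T1) held 17800675 to 18951493. Levels are given as CPM, a gene's counts relative to the library total after scaling with TMM factors, and ± values beside them are SDs over the 3 libraries of a group. Changes are log2 fold changes of ponatinib against DMSO from edgeR, with their SE, and a gene was called at a Benjamini-Hochberg adjusted p under 0.05 over all genes tested in the line. For a gene taken alone, the smallest p that an exact two-sided permutation of 3 against 3 libraries can give is 0.1. The labels call both lines epithelial. Of 5 epithelial markers in MDA-MB-231, 4 were tested and 3 rose, and their summed level was 1356 to 1643 CPM with DMSO and 2320 to 2977 CPM with ponatinib. KRT8 rose by 0.88 among them, CDH1 had no count with DMSO, and the mesenchymal marker VIM fell from 1288 to 817 CPM. In 4T1 the same 5 summed to 6115 to 6840 CPM with DMSO and 5731 to 6347 CPM with ponatinib, with 1 higher and 2 lower, and Vim was at 3257 CPM with DMSO and not called. The summed level of 4 leukocyte and endothelial markers was at most 0.398 CPM in any library of the human line and 0.723 CPM in any of the mouse line. ESR1 and PGR, receptors that define the triple-negative class by their absence, summed to at most 1.01 CPM in MDA-MB-231. In 4T1 they summed to 2.72 to 4.06 CPM with DMSO and 5.42 to 7.48 CPM with ponatinib, with Esr1 called higher (0.89) and Pgr at 0 in all libraries. The part of the keratin and vimentin changes in the results below was not tested.

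Ponatinib-treated cells of both lines held more RNA of most of these genes, and none of them was called lower. In MDA-MB-231, 31 of the 34 genes passed the filter on low counts, 22 were called higher and 0 lower, against 27.2% higher and 26.8% lower among the 14610 genes tested. In 4T1, 33 of the 35 genes passed, 26 were called higher and 0 lower, against 29.5% higher and 29.4% lower among 13286 genes. Scaling by total counts instead of TMM gave 4641 genes higher in MDA-MB-231 with 3097 genes lower in MDA-MB-231, and 4854 genes higher in 4T1 with 2935 genes lower in 4T1. The members called higher were then 25 and 28, still with 0 lower. The tested members had median log2 changes of 0.66 (human line) and 0.82 (mouse line), beside medians of 0.015 and -0.00014 over all tested genes. By values alone, all 3 ponatinib libraries lay above all 3 DMSO libraries for 23 human and 27 mouse members, compared with 30.6% and 32.6% of all tested genes. Among the human members the changes spanned -0.033 to 2.98, and among the mouse members -0.15 to 2.41. A rise of more than 2-fold was seen for 11 of the human and 15 of the mouse members. Over all genes tested it was seen for 1607 of 14610 in MDA-MB-231 and 1290 of 13286 in 4T1.

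**Figure D1:**
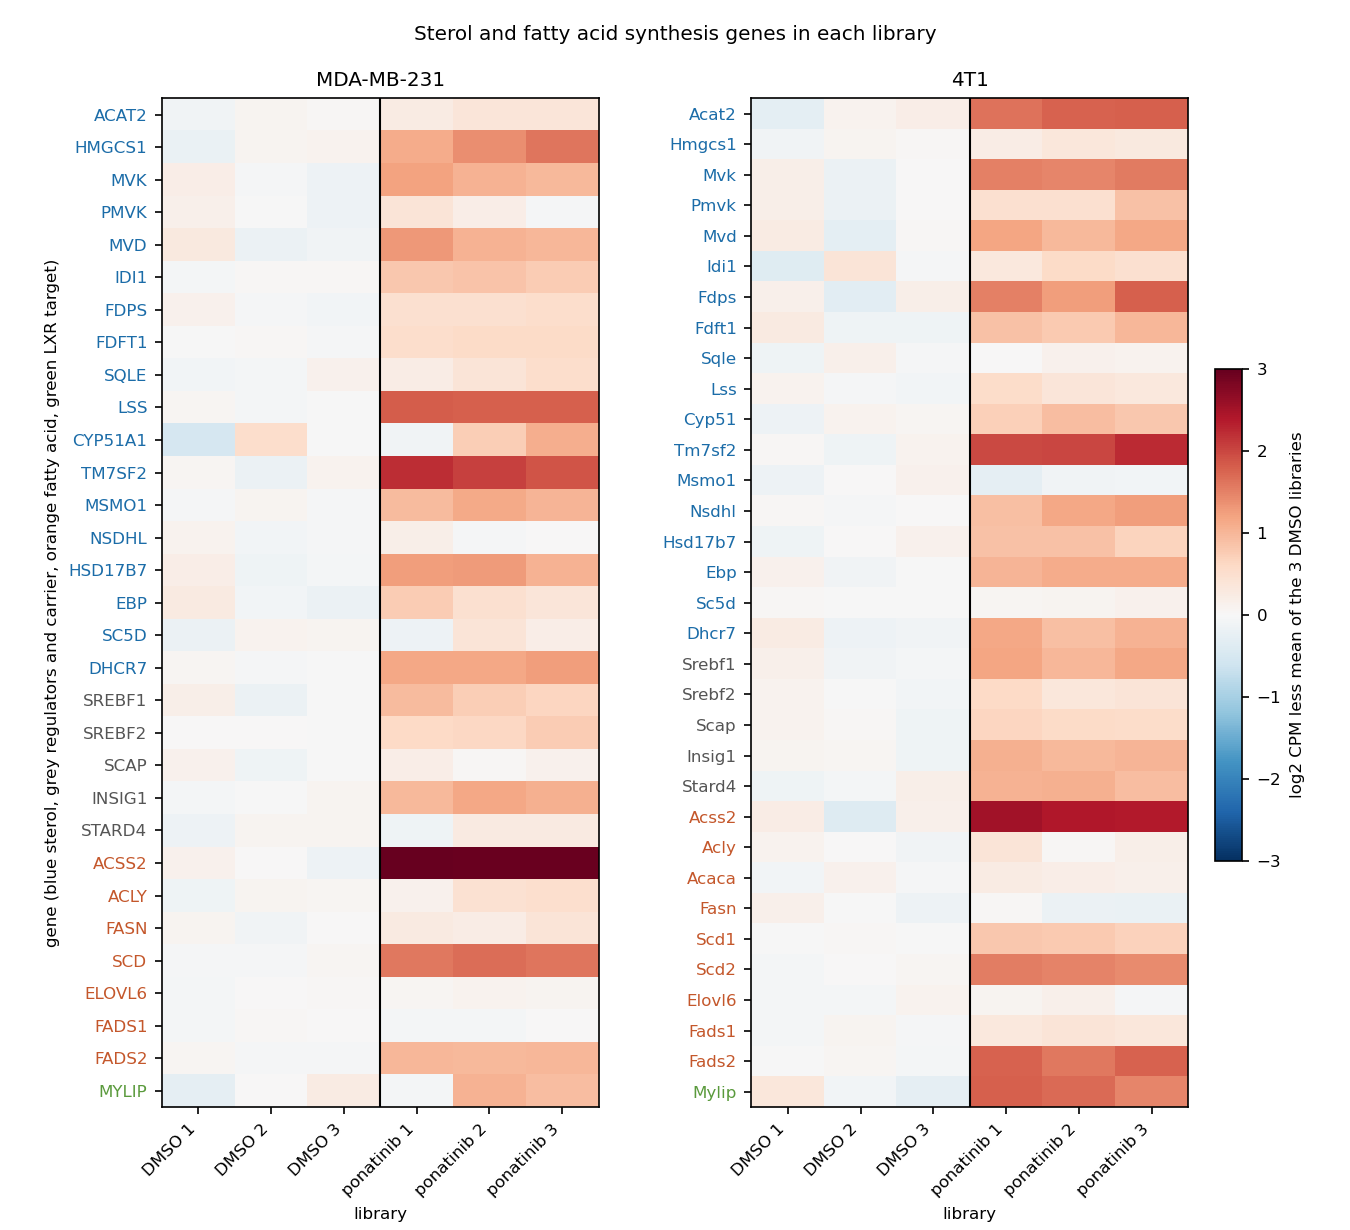
Level of each tested member in each library, as log2 CPM less the mean of the 3 DMSO libraries of its line (color scale). Rows are genes in the order of the pathway, columns are libraries, with the human line in the left panel and the mouse line in the right panel. ACSS2 and TM7SF2 had the largest rises in both lines. They were followed by LSS, SCD and HMGCS1 in MDA-MB-231, and by Acat2, Fads2, Mylip, Fdps, Mvk and Scd2 in 4T1.

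SREBPs bind the sterol regulatory element (SRE), usually beside sites for NF-Y, which reads CCAAT, and SP1, which reads a GC box. Promoter windows of 300 bases, from 250 before to 50 after the start of transcription, were searched on both strands for the SRE letters TCACNCCAC, for CCAAT, for the GC box GGGCGG, for the E-box CACGTG and for an LXR element written as AGGTCA repeated after 4 bases. None of these motifs contains another. RefSeq windows (GRCh38.p14) were given for 29 of the 34 human genes and not for ABCG1, ACAT2, FASN, FDFT1 and SQLE. CCAAT was found in 65.5% of the 29, against 34.6% of all 35116 human promoters, and the GC box in 93.1% against 45% of all and 56.3% of those of coding genes. The exact SRE letters were rare, in 3.45% of the 29, which is SREBF2 alone, against 1.13% of all, and with 1 mismatch allowed they were found in 44.8% against 24.5%. The E-box was in 17.2% against 7.26%, and the LXR element in 0 of 29 against 0.0199%. For the 30 mouse counterparts, windows were read from GRCm39 at the starts of canonical GENCODE vM39 transcripts, and the exact SRE was in 10% of them (Acss2, Acaca and Hmgcs1) against 1.34% of 21770 coding genes, with CCAAT in 66.7% against 39.9% and the GC box in 73.3% against 42.5%. Mouse E-boxes were in 20% against 7.81%, the LXR element was in 0 windows of either kind, and the SRE with 1 mismatch was in 46.7% against 24.5%. The genes shown were chosen after their values were seen: SREBF2 and Acss2 for their exact SREs, HMGCS1 because its change differed between the lines, and TM7SF2 because its change was large in both. Each line gives the 250 bases before the start, 5′ to 3′ on the gene's strand, with SRE letters and CCAAT in capitals, the latter reading ATTGG where it lies on the other strand. A start is that of 1 transcript and can lie inside the gene's full span, as it does for Acss2, whose span begins upstream of its window. The windows are chr22:41832855-41833104 (+), chr5:43313413-43313662 (-) and chr11:65111622-65111871 (+) in GRCh38.p14 and chr13:120151732-120151981 (+), chr2:155359618-155359867 (+) and chr19:6117893-6118142 (-) in GRCm39.
SREBF2: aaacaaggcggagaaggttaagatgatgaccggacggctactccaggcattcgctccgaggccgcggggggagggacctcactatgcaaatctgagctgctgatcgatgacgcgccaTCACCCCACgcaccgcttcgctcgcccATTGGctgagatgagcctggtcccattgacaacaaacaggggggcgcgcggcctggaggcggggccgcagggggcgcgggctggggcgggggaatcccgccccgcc
HMGCS1: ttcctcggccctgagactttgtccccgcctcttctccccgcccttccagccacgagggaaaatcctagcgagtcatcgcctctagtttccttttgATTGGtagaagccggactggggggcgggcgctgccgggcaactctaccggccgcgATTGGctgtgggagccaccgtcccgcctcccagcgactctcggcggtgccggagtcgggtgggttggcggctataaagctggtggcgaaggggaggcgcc
Hmgcs1: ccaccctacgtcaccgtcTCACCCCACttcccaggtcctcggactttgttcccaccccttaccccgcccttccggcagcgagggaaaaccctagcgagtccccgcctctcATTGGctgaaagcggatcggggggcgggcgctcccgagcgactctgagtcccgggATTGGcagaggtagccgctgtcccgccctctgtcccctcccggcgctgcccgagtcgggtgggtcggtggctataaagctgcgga
Acss2: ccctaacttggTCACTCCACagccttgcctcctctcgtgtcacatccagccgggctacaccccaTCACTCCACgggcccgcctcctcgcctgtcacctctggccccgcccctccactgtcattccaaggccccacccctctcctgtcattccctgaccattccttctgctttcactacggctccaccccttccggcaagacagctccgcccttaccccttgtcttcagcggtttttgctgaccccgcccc
TM7SF2: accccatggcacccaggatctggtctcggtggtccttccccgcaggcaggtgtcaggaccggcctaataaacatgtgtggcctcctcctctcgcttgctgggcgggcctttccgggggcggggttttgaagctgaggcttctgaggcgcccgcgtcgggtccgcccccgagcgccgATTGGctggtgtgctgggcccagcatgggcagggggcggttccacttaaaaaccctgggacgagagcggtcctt
Tm7sf2: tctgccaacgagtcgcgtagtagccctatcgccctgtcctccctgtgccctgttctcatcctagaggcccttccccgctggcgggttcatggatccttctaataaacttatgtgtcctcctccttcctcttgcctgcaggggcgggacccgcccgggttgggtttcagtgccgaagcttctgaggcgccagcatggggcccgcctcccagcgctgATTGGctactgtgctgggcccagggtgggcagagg
In SREBF2, the SRE began at -133 from the start and the CCAAT box at -106. HMGCS1 and Hmgcs1 carried a pair of CCAAT boxes each, at -155 and -100 in human and at -140 and -85 in mouse, and the mouse window alone held an exact SRE, at -232. The Acss2 window held the SRE letters at -239 and at -186, and no human ACSS2 match was exact. TM7SF2 and Tm7sf2 held 1 CCAAT box each before the start, at -74 and -35. These matches describe letters in the windows and not binding.

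In MDA-MB-231, 14 of the 18 sterol enzymes were called higher and 0 lower, with a median log2 change of 0.71. Of these enzymes 8 rose more than 2-fold, beside 1607 of all 14610 genes tested. Called genes were found along the whole pathway, at 6 of 7 enzymes from acetyl-CoA to farnesyl diphosphate, 3 of 3 from squalene synthase to lanosterol, and 5 of 8 after lanosterol. TM7SF2, a sterol C14 reductase, had 19.2, 16.2 and 19.8 CPM with DMSO and 84.9, 75.5 and 68.0 CPM with ponatinib. All ponatinib values lay far above the DMSO values, and the log2 change was 2.04 ± 0.11 (adjusted p = 8.08e-08). LSS, lanosterol synthase, which closes the first sterol rings, had 148, 137 and 139.9 CPM with DMSO and 501, 489 and 494 CPM with ponatinib, a rise of 1.80 ± 0.072 (adjusted p = 6.96e-09). Its libraries were tight within each group, and the fold was 3.49. For DHCR7, which makes cholesterol from 7-dehydrocholesterol, the libraries held 254, 238 and 245 CPM with DMSO and 544, 550.4 and 585 CPM with ponatinib, without overlap. The DHCR7 rise was 1.19 ± 0.072 (adjusted p = 1.68e-07). MSMO1, a C4 methyl sterol oxidase, went from 117, 127 and 116 CPM to 231, 265 and 243 CPM, a rise of 1.03 ± 0.08 (adjusted p = 1.06e-06). At the start of the pathway HMGCS1, which makes HMG-CoA, had 34.7, 41.9 and 42.5 CPM with DMSO and 85.2, 104 and 121 CPM with ponatinib. The ponatinib values were apart from the DMSO values but spread more than those of LSS, and HMGCS1 rose by 1.38 ± 0.13 (adjusted p = 3.76e-06).

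The mevalonate enzymes MVK (mevalonate kinase), MVD (mevalonate diphosphate decarboxylase) and IDI1 (isopentenyl diphosphate isomerase) rose by 1.07, 1.11 and 0.82. MMAB, which overlaps MVK on the other strand, rose by 0.98, and TCP1, on the other strand from ACAT2, fell by 0.95. HSD17B7, a 3-keto sterol reductase, rose by 1.19. Smaller rises were called for FDFT1, the squalene synthase (0.56), EBP, the sterol isomerase (0.54), FDPS, the farnesyl diphosphate synthase (0.49), SQLE, the squalene epoxidase (0.38), and ACAT2, the cytosolic thiolase (0.32). The 4 enzymes that were not called were PMVK, NSDHL, SC5D and CYP51A1. PMVK, phosphomevalonate kinase, was at 48.4 ± 5.32 CPM with DMSO and 55.2 ± 8.36 CPM with ponatinib, and its change of 0.19 ± 0.12 had an adjusted p of 0.204, or 0.0105 with the replicate number as a block. NSDHL, a sterol C4 decarboxylase, was at 74.7 ± 5.14 CPM with DMSO and 77.4 ± 6.20 CPM with ponatinib, and its change was 0.051 ± 0.088. SC5D, a sterol desaturase, had a change of 0.15 ± 0.13 with an adjusted p of 0.337, or 0.0490 with the block. CYP51A1, the lanosterol demethylase, had only 10 to 37 counts a library and a change of 0.61 ± 0.38. In GENCODE v44 its locus is shared with AKAP9 and CYP51A1-AS1 on the other strand and with unnamed genes on its own, and the part of this in its low counts was not tested. PMVK was called with total counts (0.28) and without ponatinib replicate 3 (0.30), and without ponatinib replicate 1 SC5D was (0.28).

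**Figure D2:**
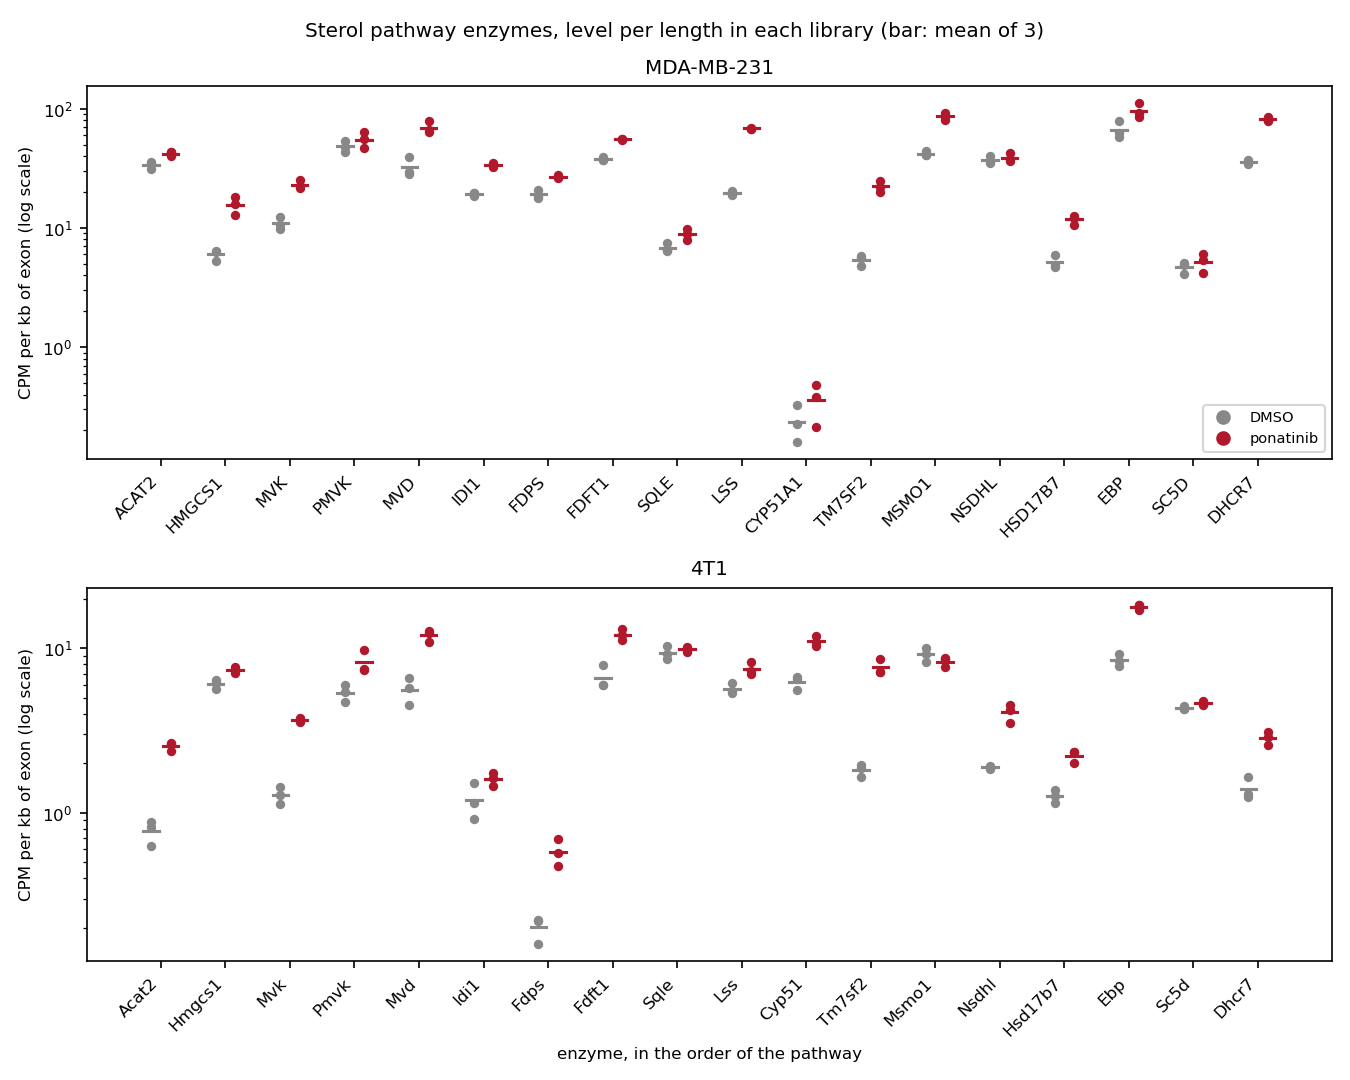
Level of the 18 sterol enzymes in each library, as CPM per kb of exon on a log scale, in the order of the pathway, for MDA-MB-231 (top) and 4T1 (bottom). Points are libraries and bars are means of 3. LSS and TM7SF2 show wide gaps between gray DMSO and red ponatinib points in MDA-MB-231, and Acat2, Mvk and Tm7sf2 do so in 4T1.

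In 4T1, again 14 of the 18 sterol enzymes were called higher and 0 lower, with a median log2 change of 0.85. Among them 8 rose more than 2-fold, beside 1290 of all 13286 genes tested. The calls covered 6 of 7 enzymes up to farnesyl diphosphate, 2 of 3 from squalene synthase to lanosterol, and 6 of 8 after lanosterol. Tm7sf2 had 9.13, 8.06 and 9.52 CPM with DMSO and 35.0, 35.3 and 42.2 CPM with ponatinib, a rise of 2.07 ± 0.12 (adjusted p = 3.36e-09), the largest among the sterol enzymes here as in MDA-MB-231. Whether the counting used strand is not given in the sources used here, so reads of overlapping genes may be shared. In both genomes this gene overlaps VPS51 on the same strand, and that gene rose by 0.47 in MDA-MB-231 and, as Vps51, by 0.46 in 4T1. Acat2, the thiolase of the first step, had 3.69, 4.83 and 5.14 CPM with DMSO and 13.8, 15.4 and 15.6 CPM with ponatinib, a rise of 1.71 ± 0.15 (adjusted p = 2.06e-07). Its neighbor Tcp1, which overlaps it on the other strand, fell by 0.36. For Mvk the libraries held 16.1, 12.7 and 14.3 CPM with DMSO and 40.6, 39.5 and 42.1 CPM with ponatinib, and the rise was 1.51 ± 0.11 (adjusted p = 3.01e-08). Ebp, the sterol isomerase, had 37.6, 32.0 and 34.1 CPM with DMSO and 69.5, 75.0 and 74.4 CPM with ponatinib, a rise of 1.08 ± 0.086 (adjusted p = 9.68e-08). In all of these genes the groups were well apart.

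Fdps also rose by 1.51, but from only 53 counts summed over the DMSO libraries to 161 over the ponatinib libraries, and processed copies of this gene elsewhere in the genome could share its reads. Nsdhl, Mvd and Dhcr7 rose by 1.11, 1.10 and 1.03. Fdft1, Cyp51, Hsd17b7 and Pmvk rose by 0.88, 0.82, 0.81 and 0.62. The rises of Lss (64.1 ± 4.52 CPM with DMSO and 85.2 ± 7.50 CPM with ponatinib) and Hmgcs1 (32.0 ± 2.07 CPM with DMSO and 38.8 ± 1.70 CPM with ponatinib) were small, 0.41 ± 0.086 and 0.28 ± 0.09. Hmgcs1 was not called without DMSO replicate 1 (0.22, adjusted p = 0.0530) or without ponatinib replicate 2 (0.25, adjusted p = 0.0745). The enzymes not called were Idi1, Sqle, Msmo1 and Sc5d. Sqle, at 83.0 ± 8.18 CPM with DMSO and 87.4 ± 3.21 CPM with ponatinib, had a change of 0.074 ± 0.083, and Sc5d had 0.093 ± 0.092. Msmo1 had 73.7, 81.7 and 89.7 CPM with DMSO and 68.1, 76.0 and 77.2 CPM with ponatinib, a change of -0.15 ± 0.088, and was called lower without DMSO replicate 1 (-0.22). Idi1 had a change of 0.43 ± 0.19 with an adjusted p of 0.0715, or 0.0265 with the replicate block, and was called with total counts (0.54) and without DMSO replicate 2 (0.64).

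The fatty acid genes split into strong and weak responders. In MDA-MB-231, 5 of the 7 with counts were called higher and 0 lower, with a median log2 change of 0.37. ACSS2 (ENSG00000131069, chr20:34872146-34927962, hg38), which makes acetyl-CoA from acetate in the cytosol, had 37.9, 34.8 and 31.0 CPM with DMSO and 278, 268 and 270.1 CPM with ponatinib. The change of 2.98 ± 0.09, a fold of 7.88 (adjusted p = 1.08e-09), was the largest of all members in this line. GGT7, which overlaps ACSS2 on the other strand, rose by 1.66. SCD, the stearoyl-CoA desaturase that makes oleate, had 106, 107 and 113 CPM with DMSO and 325, 348 and 330.3 CPM with ponatinib, a rise of 1.62 ± 0.073 (adjusted p = 1.88e-08). FADS2, the delta-6 desaturase of polyunsaturated fatty acids, had 321, 302 and 299 CPM with DMSO and 608, 599 and 615 CPM with ponatinib, a rise of 0.98 ± 0.07 (adjusted p = 6.02e-07). FEN1, a replication nuclease within the FADS2 locus on the same strand, fell by 1.77. In these 3 genes no ponatinib library overlapped a DMSO library.

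The enzymes at the core of the fatty acid pathway had smaller log2 changes. FASN, the fatty acid synthase that makes palmitate, had 598, 530.2 and 577 CPM with DMSO and 689, 662 and 743 CPM with ponatinib, a rise of 0.30 ± 0.079 (adjusted p = 0.00714) that was not called without DMSO replicate 2 (0.24, adjusted p = 0.0545). ACLY, which makes acetyl-CoA from citrate, was at 354 ± 27.4 CPM with DMSO and 458 ± 64.8 CPM with ponatinib, a rise of 0.37 ± 0.11 that was not called without ponatinib replicate 2 (0.32, adjusted p = 0.0568). ELOVL6, the elongase of palmitate, had a change of 0.081 ± 0.075 and was not called, although its groups did not overlap. FADS1, the delta-5 desaturase, had a change of -0.033 ± 0.07 and was not called. Scaling by total counts turned the sign of FADS1 to 0.062, also not called. FADS1 overlaps FADS2 on the other strand in human, while mouse Fads1 and Fads2 do not overlap each other. The part of this overlap in the changes of either gene was not tested.

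In 4T1, 6 of the 9 fatty acid genes were called higher and 0 lower, with a median of 0.35. Acss2 (ENSMUSG00000027605, chr2:155355679-155428016, GRCm39), with the SRE letters shown above before its canonical start, had 6.07, 3.95 and 5.74 CPM with DMSO and 29.8, 27.4 and 26.8 CPM with ponatinib. It rose by 2.41 ± 0.15, a fold of 5.33 (adjusted p = 5.73e-09), again the largest change of all members, while its neighbors Ggt7 and Gss fell by 1.19 and rose by 0.75 here. Scd2, the desaturase form with the higher level in these cells, had 558, 589.8 and 603 CPM with DMSO and 1677, 1639 and 1558 CPM with ponatinib, a rise of 1.48 ± 0.077 (adjusted p = 1.16e-09). Scd1 had 263, 273 and 263 CPM with DMSO and 469.7, 461 and 431 CPM with ponatinib, a rise of 0.77 ± 0.072 (adjusted p = 4.93e-07). Since these paralogs are alike in sequence, reads that fit both could be split or dropped in counting. Per kb of exon, Scd2 went from 77.5 ± 3.08 to 216 ± 8.05 CPM and Scd1 from 36.9 ± 0.795 to 63.0 ± 2.84 CPM. Fads2 had 20.0, 21.1 and 19.4 CPM with DMSO and 69.0, 60.4 and 68.7 CPM with ponatinib, a rise of 1.71 ± 0.091 (adjusted p = 1.48e-09), and Fads1 rose by 0.35 ± 0.072.

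Fasn in 4T1 had 316, 285 and 257 CPM with DMSO and 293, 252 and 247 CPM with ponatinib, so the groups overlapped. Its change of -0.12 ± 0.091 was not called (adjusted p = 0.287), and with total counts as the scale it was 0.001. Acaca, the acetyl-CoA carboxylase that makes malonyl-CoA, rose by 0.20 ± 0.081 with an adjusted p of 0.0429. That call was lost with DESeq2 (adjusted p = 0.0647), with its size factors, with no filter, and on leaving out DMSO replicate 1 or 3 or any ponatinib replicate (log2 change 0.15 to 0.23). Acly, at 159 ± 11.5 CPM with DMSO and 183 ± 21.5 CPM with ponatinib, had a change of 0.20 ± 0.09 with an adjusted p of 0.0640, or 0.00923 with the replicate block, and was called without DMSO replicate 1 (0.25) or ponatinib replicate 2 (0.28). It was also called with total counts, with no filter and with at least 10 counts in every library (adjusted p from 0.00588 to 0.0440). Elovl6 had a change of 0.068 ± 0.10 and was not called.

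**Figure D3:**
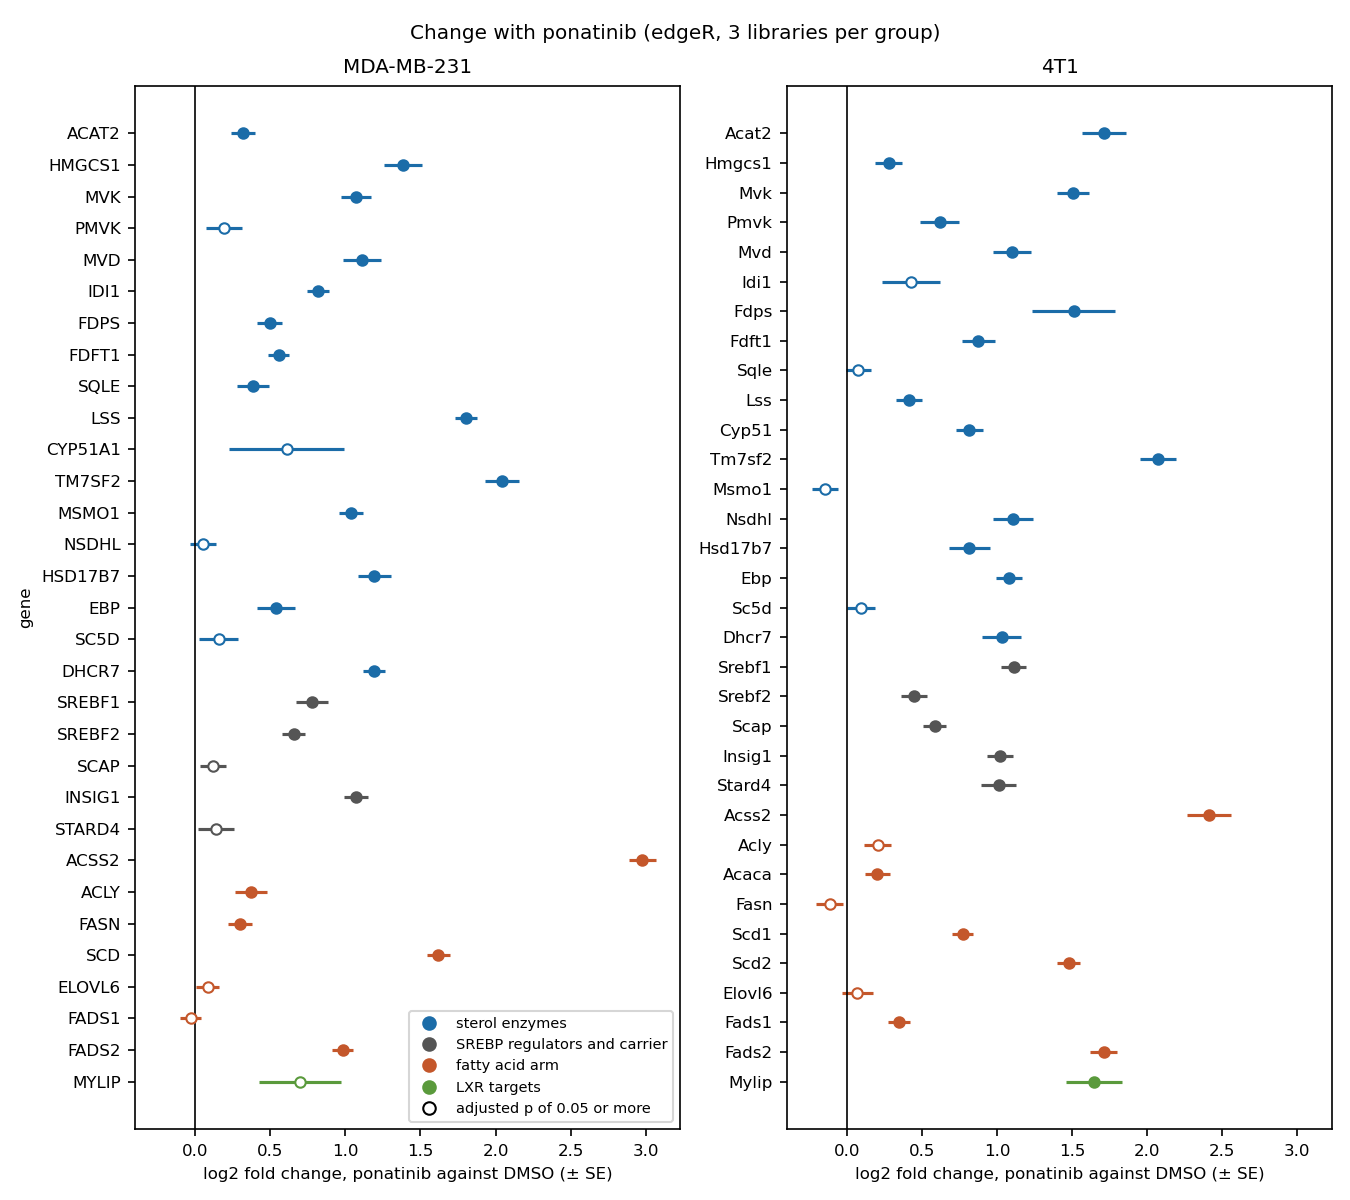
Log2 fold change of ponatinib against DMSO for each tested member (points) with its SE (bars), with 1 panel for each line, colored by group and open where the adjusted p was 0.05 or more. ACSS2 or Acss2 lies farthest to the right in both lines, at 2.98 and 2.41, and Fasn and Msmo1 lie below 0 in 4T1, both open.

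Set side by side, the sterol and the fatty acid arms had mean changes of 0.73 to 0.94 in the single ponatinib libraries, with different spreads over their genes. The mean over the sterol enzymes of log2(CPM + 0.5), less its DMSO mean, was 0.80, 0.83 and 0.81 in the MDA-MB-231 ponatinib libraries, and that over the fatty acid genes was 0.85, 0.90 and 0.94. In 4T1 it was 0.78, 0.80 and 0.87 for the sterol enzymes and 0.84, 0.75 and 0.73 for the fatty acid genes. In the fatty acid arm the large changes were those of ACSS2, the SCD genes and FADS2, and its medians over genes were 0.37 and 0.35, beside 0.71 and 0.85 for the sterol arm. No test was made of the arms against each other, and the members of an arm are not replicates of it. SREBF2, the regulator linked with the sterol arm, and SREBF1, linked with the fatty acid arm, are given next.

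The genes for both SREBPs rose. SREBF1 (ENSG00000072310, chr17:17810399-17837002, hg38) had 94.6, 74.0 and 82.3 CPM with DMSO and 161, 139 and 131 CPM with ponatinib in MDA-MB-231, a rise of 0.78 ± 0.11 (adjusted p = 7.66e-05). SREBF2 (ENSG00000198911, chr22:41833105-41907306, hg38) had 170.3, 169 and 166 CPM with DMSO and 253, 257 and 285 CPM with ponatinib, a rise of 0.66 ± 0.075 (adjusted p = 2.05e-05). Neither gene's groups overlapped. In 4T1, Srebf1 had 174, 147 and 152 CPM with DMSO and 355, 314 and 352 CPM with ponatinib, a rise of 1.11 ± 0.084 (adjusted p = 5.91e-08). Srebf2 had 405, 369 and 353 CPM with DMSO and 563, 477 and 492 CPM with ponatinib, a rise of 0.44 ± 0.085 (adjusted p = 0.000402). Per kb of exon, SREBF2 stood above SREBF1 in MDA-MB-231 with DMSO (20.9 ± 0.289 against 10.2 ± 1.26 CPM) and with ponatinib (32.9 ± 2.17 against 17.4 ± 1.87 CPM). In 4T1, Srebf2 stood above Srebf1 with DMSO (40.2 ± 2.84 against 26.8 ± 2.47 CPM), while with ponatinib they were within each other's spread (54.7 ± 4.88 against 57.8 ± 3.85 CPM). The microRNA genes MIR33A and MIR33B lie within SREBF2 and SREBF1 in human, and Mir33 lies within Srebf2 in mouse.

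INSIG1, which holds SCAP in the endoplasmic reticulum and is itself a classical SREBP target, had 80.0, 83.4 and 88.7 CPM with DMSO and 165, 187 and 176 CPM with ponatinib in MDA-MB-231, a rise of 1.07 ± 0.08 (adjusted p = 8.25e-07). Insig1 had 35.4, 34.4 and 30.2 CPM with DMSO and 69.6, 65.0 and 67.9 CPM with ponatinib in 4T1, a rise of 1.02 ± 0.086 (adjusted p = 1.71e-07). The groups were apart in both lines, and the folds were 2.10 and 2.02. SCAP, the escort, had a change of 0.12 ± 0.085 in MDA-MB-231 that was not called (adjusted p = 0.265, or 0.0164 with the replicate block and 0.0271 with total counts), whereas Scap rose by 0.58 ± 0.078 in 4T1. STARD4, a cytosolic sterol carrier, had a change of 0.14 ± 0.12 in MDA-MB-231, not called except without ponatinib replicate 1 (0.26), and Stard4 rose by 1.01 ± 0.12 in 4T1. In all, 3 of these 5 genes were called higher in MDA-MB-231 and 5 of 5 in 4T1.

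Of the LXR targets, the exporters had few counts and MYLIP was called in 4T1. ABCA1, the cholesterol exporter to apolipoprotein A-I, had 7, 4 and 13 counts with DMSO and 5, 5 and 2 counts with ponatinib in MDA-MB-231, and Abca1 had 0, 6 and 1 counts with DMSO and 4, 6 and 3 with ponatinib in 4T1. ABCG1, a related exporter, had 1 to 3 counts with DMSO and at most 1 with ponatinib in MDA-MB-231, and Abcg1 had 1 to 6 counts in any 4T1 library. Neither gene passed the filter, and a change in them was not detectable at this depth. MYLIP, a ubiquitin ligase that sends lipoprotein receptors to degradation, had 2.52, 3.04 and 3.59 CPM with DMSO and 2.90, 6.18 and 5.75 CPM with ponatinib in MDA-MB-231. Ponatinib replicate 1 lay among the DMSO libraries, and the change of 0.70 ± 0.28 had an adjusted p of 0.0504, or 0.00577 with the replicate block. It was 0.96 and called without that library, and was also called with DESeq2, with total counts, with no filter and with at least 10 counts in every library (adjusted p from 0.00883 to 0.0436). In 4T1, Mylip had 3.35, 2.50 and 2.19 CPM with DMSO and 9.20, 8.58 and 7.32 CPM with ponatinib, without overlap, a rise of 1.64 ± 0.19 (adjusted p = 3.69e-06).

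The size of the ponatinib effect differed between the lines for many members. In a fit of both lines over 12490 genes paired by symbol, the interaction term differed from 0 for 18 of 31 members, 9 of them with the larger effect in each line, compared with 41.9% of all paired genes, and for 25 of 31 with the replicate block, where the share over all paired genes was 51.9%. The larger effects in MDA-MB-231 were led by LSS, MSMO1 and HMGCS1. In this fit their changes in MDA-MB-231 exceeded those in 4T1 by 1.47 ± 0.11 (adjusted p = 5.58e-09), 1.25 ± 0.12 (adjusted p = 1.66e-07) and 1.18 ± 0.16 (adjusted p = 8.64e-06) on the log2 scale. All libraries were scaled together here, so the terms are not exactly the differences between the changes given above for each line. For every tested member paired 1 to 1, the term lay more toward MDA-MB-231 than that difference. This bears on calls near the threshold and on the split into 9 and 9. TM7SF2, for instance, rose by 2.045 and 2.074 in the separate fits, yet its term was 0.044. Over all paired genes the median of the term was 0.041. This median was 0.0308 to 0.0458 without any single MDA-MB-231 library, and -0.0226 to -0.00635 without any single 4T1 library. The part of this shift in the calls lost without 4T1 libraries, given below, was not tested. ACSS2 (0.64), FASN (0.49) and SCD against the sum of Scd1 and Scd2 (0.40) also had the larger effect in MDA-MB-231. In the other direction, ACAT2 (-1.32 ± 0.15, adjusted p = 1.14e-06), NSDHL (-0.98 ± 0.15, adjusted p = 3.38e-05) and FDPS (-0.94 ± 0.23, adjusted p = 0.00258) had the larger effect in 4T1. So did STARD4 (-0.80), FADS2 (-0.65), SCAP (-0.39) and FADS1 (-0.31).

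For 6 of these 18 the call was lost on leaving out some single libraries. IDI1 (0.46) kept it only without ponatinib replicate 1 or 3 of MDA-MB-231 or DMSO replicate 1 of 4T1, with values of 0.19 to 0.48 where it was lost. SQLE (0.38) kept it only without DMSO replicate 3 or ponatinib replicate 1 of MDA-MB-231 or DMSO replicate 1 of 4T1, with 0.24 to 0.37 where lost. HSD17B7 (0.45) kept it only without DMSO replicate 1 or ponatinib replicate 3 of MDA-MB-231, with 0.32 to 0.46 where lost. All 3 also lost it with total counts, and HSD17B7 with DESeq2. EBP (-0.47) lost it without MDA-MB-231 DMSO replicate 1 or ponatinib replicate 2 or 3 (-0.33 to -0.44), FADS1 without MDA-MB-231 DMSO replicate 2 (-0.28), and MYLIP (-0.87) without DMSO replicate 2 or 3 or ponatinib replicate 1 of MDA-MB-231, or DMSO replicate 2 or 3 or ponatinib replicate 1 or 2 of 4T1 (-0.61 to -0.92). Differences that were not called included TM7SF2 (0.044 ± 0.17), INSIG1 (0.12 ± 0.11), MVD (0.083 ± 0.19) and DHCR7 (0.23 ± 0.14). SREBF1 (-0.26 ± 0.14, adjusted p = 0.155) and SREBF2 (0.28 ± 0.12, adjusted p = 0.0557) were not called either, but with the replicate block they were, at 0.00943 and 0.00310. SREBF1 was called too with total counts or without MDA-MB-231 ponatinib replicate 1 or 4T1 DMSO replicate 1 (adjusted p from 0.0252 to 0.0390), and SREBF2 without ponatinib replicate 1 of either line (adjusted p from 0.0397 to 0.0465). MVK (-0.36, adjusted p = 0.0511) lay at the threshold, and was called with the block (adjusted p = 0.00255), DESeq2, total counts and without DMSO replicate 3 or ponatinib replicate 1 of MDA-MB-231 or DMSO replicate 1 or 3 or ponatinib replicate 1 or 2 of 4T1 (-0.39 to -0.51). PMVK (-0.35 with the block, adjusted p = 0.0187) was also called with total counts and without MDA-MB-231 ponatinib replicate 1, and FDFT1 (-0.25, adjusted p = 0.0355 with the block) with total counts and without 4T1 DMSO replicate 1. ACLY (0.24, adjusted p = 0.0168 with the block) was also called without MDA-MB-231 ponatinib replicate 1, and DHCR7 (0.23, adjusted p = 0.0478) only with the block. Across the 30 genes paired 1 to 1, the log2 changes of the lines had a Pearson r of 0.495 and a Spearman rho of 0.331, given as a description since genes are not independent. In 16 of these genes the change was called higher in both lines. For all paired genes, neither the share of such calls nor the correlation is given here. Whether the members stand out from all paired genes in these 2 respects was not tested.

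**Figure D4:**
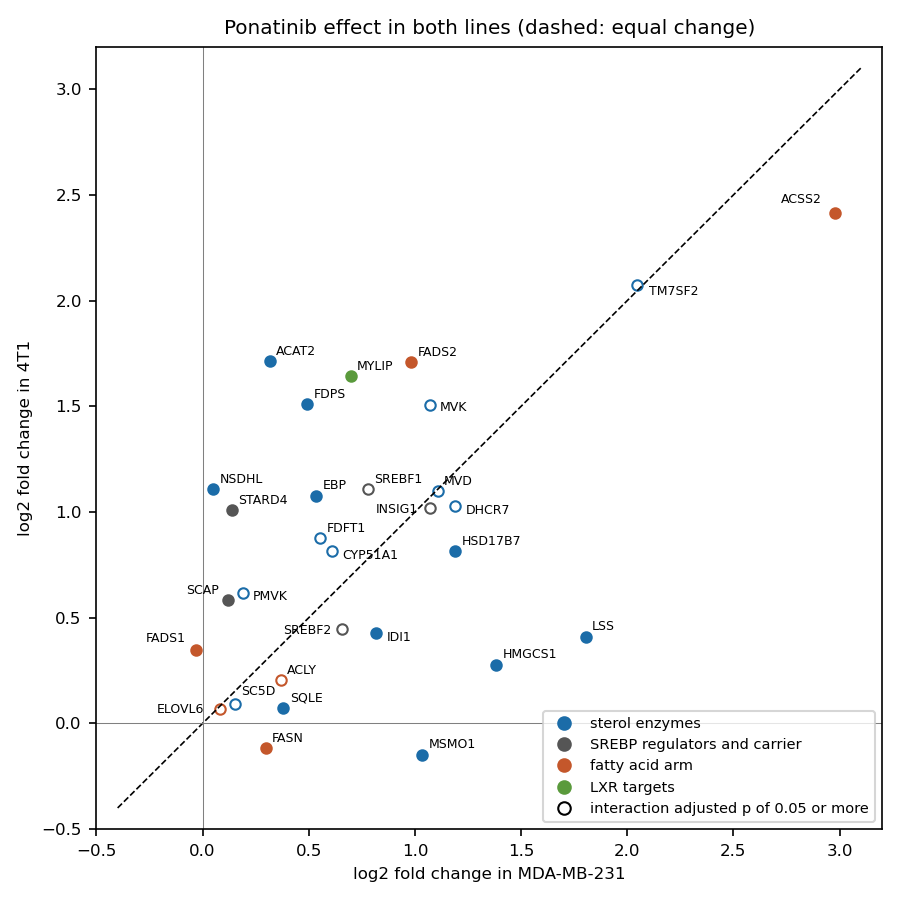
Log2 fold change with ponatinib in 4T1 (vertical) against that in MDA-MB-231 (horizontal) for the 30 members paired 1 to 1, colored by group and open where the difference between the lines had an adjusted p of 0.05 or more. SCD, paired with a sum, is not drawn. TM7SF2, INSIG1 and DHCR7 lie on or near the dashed line of equal change, LSS, HMGCS1 and MSMO1 lie below it, and ACAT2, FDPS and NSDHL lie above it.

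Genes around the pathway were taken from lists written from general knowledge, with earlier results of these data known. Their counts stand beside the shares over all tested genes given above, 27.2% higher and 26.8% lower for MDA-MB-231 and 29.5% higher and 29.4% lower for 4T1. Of 9 genes for the processing and turnover of SREBP and its retention proteins, the human line had 1 called higher and 1 lower, and the mouse line 2 higher and 2 lower. TMEM97, a sterol-regulated membrane protein, rose by 0.57 in MDA-MB-231 and, as Tmem97, by 0.58 in 4T1, and ERLIN1, a membrane scaffold that restrains SREBP, fell by 0.61 and, as Erlin1, by 0.86. Mbtps1, the site-1 protease that cuts SREBP in the Golgi, rose by 0.31 in 4T1. In the isoprenoid branch, which leads from the same precursors to prenyl groups, dolichol and ubiquinone, 2 of 11 human genes were called higher and 5 lower (median -0.20), and 2 mouse genes higher and 6 lower (median -0.21). GGPS1, the geranylgeranyl diphosphate synthase, rose by 0.92 in MDA-MB-231, where PDSS1, for the ubiquinone side chain, fell by 1.29 and RABGGTB, a Rab prenyl transferase subunit, fell by 0.78. In 4T1 the prenyl transferase subunits Pggt1b, Rabggtb and Rabggta had log2 changes of -0.47, -0.39 and -0.31, all called.

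For sterol uptake, transport and storage, 4 of 14 human genes were called higher and 4 lower, and 5 mouse genes higher and 5 lower, shares near those over all genes in both lines. SOAT1 and NCEH1, which esterify cholesterol and cleave its esters, fell in MDA-MB-231 by 1.03 and 1.31, and the sterol transfer gene OSBPL5 rose by 0.90. In 4T1, Lipa, the lysosomal acid lipase, rose by 2.10 (39.9 to 172 CPM), Tspo by 1.06 and Stard3 by 0.92, the latter both carriers of cholesterol between membranes. Among LXR and oxysterol genes, 6 of 9 tested human genes were called higher and 0 lower (median 0.69), and 5 of 8 mouse genes higher and 1 lower (median 0.61). NR1H3, which encodes LXR alpha, rose by 1.71 (8.44 to 27.6 CPM) in MDA-MB-231 and by 1.25 (12.1 to 28.9 CPM) in 4T1. CYP27A1, which makes an oxysterol, rose by 1.90 and, as Cyp27a1, by 0.84, and Nr1h2, encoding LXR beta, rose by 0.64 in 4T1.

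Of 22 other lipogenic genes tested in each line, the human line had 7 called higher and 9 lower, and the mouse line 12 higher and 4 lower. ACACB, the mitochondrial acetyl-CoA carboxylase, LPIN1, a phosphatidate phosphatase, and DGAT1, which makes triglyceride, rose in MDA-MB-231 by 1.28, 1.22 and 0.79. In 4T1, Tecr, the last reductase of fatty acid elongation, and Agpat3, an acyltransferase, rose by 1.11 and 0.86, while Fabp5, a fatty acid binding protein, fell by 1.72. Of the genes of fatty acid oxidation, the reverse process, 8 of 15 were called higher in MDA-MB-231 (median 0.21) and 13 of 14 in 4T1 (median 0.77), with 0 lower in either, where 27.2% and 29.5% of all tested genes were called higher. Among the called genes with at least 10 CPM in the higher group, the largest changes were those of ECI1 (1.04), ACADS (0.75) and CPT1A (0.61) in MDA-MB-231 and of Hadh (1.81), Acaa2 (1.69) and Acadm (1.12) in 4T1. PDK4, a pyruvate dehydrogenase kinase at under 2 CPM in both lines, had larger changes, 1.43 and, as Pdk4, 3.25, and CPT2 rose by 0.80 in MDA-MB-231 at under 10 CPM, both named after their values were seen. ECI1, ACADS, Hadh, Acaa2 and Acadm act within the beta-oxidation steps, and CPT1A and CPT2 carry the acyl chain into the mitochondrion.

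**Figure D5:**
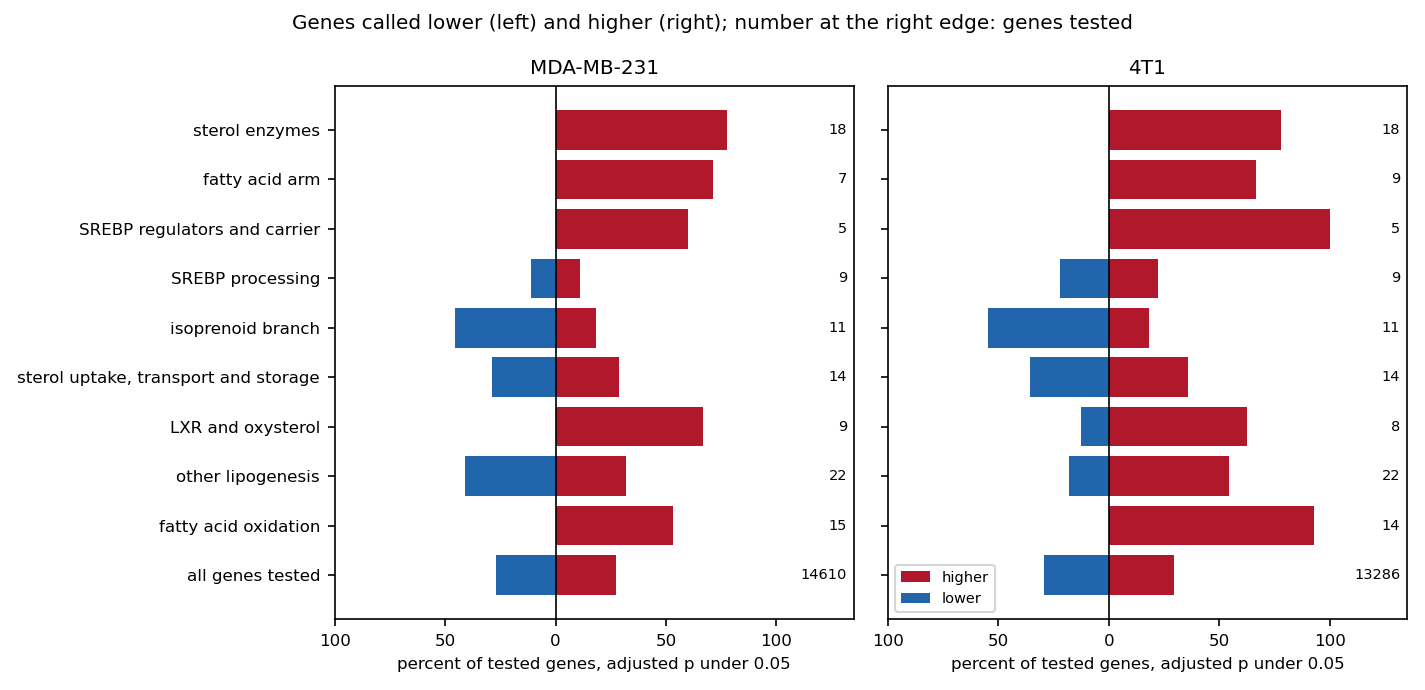
Percent of tested genes called higher (right, red) and lower (left, blue) with ponatinib in each group of members, in 6 further pathway lists and over all genes tested, with 1 panel for each line. The sterol enzymes have 14 of 18 called higher and 0 lower in both lines, while the isoprenoid branch has more called lower than higher.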

How the data were processed

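RNA-seq was analysed for 12 libraries, 3 each of MDA-MB-231 and 4T1 with DMSO or ponatinib, grouped by their labels. According to the methods and the submitters' processing notes, the authors trimmed reads, aligned them with HISAT2 (hg38 for the human and GRCm39 for the mouse line) and assigned them to genes with HTSeq, and the counts they deposited are raw. Tool versions, the annotation and the strand setting of the counting are not given in the sources used here, so reads of overlapping genes cannot always be told apart. Names, exon lengths and coordinates came from GENCODE v44 and vM39, which matched 81.9% of human identifiers (99.3% of counts) and 91.1% of mouse identifiers (99.8%).

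Each line was fitted apart with edgeR 4.0.16 in R 4.3.3 (low counts removed by filterByExpr, TMM scaling and the quasi-likelihood test), with p-values adjusted after Benjamini-Hochberg over all tested genes,, and the difference between the lines was the interaction of line and treatment over genes with the same symbol. The fits were also run on simulated data in which few genes changed, up and down alike. How they behave under a response as broad as the one here was not examined. The chi-square per gene between replicates was 2.88 to 14.9, so no library was a copy. Deviations of libraries with the same number correlated at 0.345, 0.111 and 0.133 for the human line and at 0.213, 0.119 and 0.115 for the mouse line, all over 0.1. Libraries with different numbers were not correlated for comparison, so whether the numbers pair the libraries is not settled. The main fits did not use the pairing, and the replicate block did so as an alternative. Alternatives were DESeq2 1.42.0, its size factors, total counts, leaving every gene in, a minimum of 10 counts per library, the replicate block and each library left out. Library values were set to be printed for SREBF1, SREBF2, INSIG1, FASN, SCD, ABCA1 and, in each line, the 6 other members with the smallest adjusted p, and up to 3 called genes of each further list with the largest change and at least 10 CPM were named. A gene this rule names is not reported here. Library values of HMGCS1, MYLIP, Mylip, Msmo1 and ABCG1, and overlapping genes, were added after values were seen. The members and lists were chosen with earlier results of these data known.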

Additional observations from a re-analysis of the deposited data

Results flagged for a closer look

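The ponatinib effect differed between the lines for 18 of 31 members by the interaction test in edgeR, beside 41.9% of all paired genes. The values below are from that joint fit, as the log2 change in MDA-MB-231 less that in 4T1. Since all libraries were scaled together in it, they can depart from differences between the separate fits. For members paired 1 to 1 they lay more toward MDA-MB-231 than those differences. Sterol enzymes with the larger effect in MDA-MB-231 were LSS (1.47), MSMO1 (1.25), HMGCS1 (1.18), IDI1 (0.46), HSD17B7 (0.45) and SQLE (0.38). Those with the larger effect in 4T1 were ACAT2 (-1.32), NSDHL (-0.98), FDPS (-0.94) and EBP (-0.47). Among fatty acid genes, ACSS2 (0.64), FASN (0.49) and SCD (0.40) changed more in MDA-MB-231, and FADS2 (-0.65) and FADS1 (-0.31) more in 4T1. Of the remaining genes, STARD4 (-0.80), SCAP (-0.39) and MYLIP (-0.87) changed more in 4T1. For IDI1, HSD17B7, SQLE, EBP, FADS1 and MYLIP the call was lost on leaving out some single libraries, as given above. The lines also differ in species, so line and species cannot be told apart.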

How the results depend on the processing

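No member called higher turned lower under any alternative run, but the counts moved. In the human line 21 to 26 members were called higher, with 14 to 16 sterol enzymes and 4 to 5 fatty acid genes, and in the mouse line 25 to 28, with 13 to 15 and 5 to 7. With each library left out in turn, the sterol enzymes called lower in 4T1 ranged from 0 to 1 and so did all members called lower, the 1 being Msmo1 without DMSO replicate 1. Members that differed between the lines ranged from 13 to 25, being 25 with the replicate block. Over all genes, 3466 to 4802 human genes were called higher and 3097 to 4873 lower, and 3537 to 4854 mouse genes higher and 2935 to 4310 lower. Total counts moved the median of all genes to 0.11 and 0.12. Of 372 values of single members in MDA-MB-231, 354 kept direction and call, 2 lost the call, 14 gained it and 2 reversed. In 4T1 the numbers were 375, 10, 10 and 1 of 396, and for the difference between the lines 380, 43, 25 and 17 of 465.

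The replicate block changed only non-calls to calls among single members (PMVK, SC5D, SCAP and MYLIP in MDA-MB-231, Idi1 and Acly in 4T1, and 7 differences between the lines). Members called higher with it were 26 and 28, with sterol enzymes at 16 and 15. Over all genes it called 4802 human genes higher and 4873 lower, against 3975 and 3918 in the main fit. The matching counts of mouse genes with the block are not given here. Across all settings the mouse genes called higher ranged from 3537 to 4854.

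Values that reversed were not called in either form. With total counts these were FADS1 at 0.062, Fasn at 0.00101 and the line differences of MVD at -0.015, TM7SF2 at -0.057 and ELOVL6 at -0.014. With each library left out in turn, NSDHL in MDA-MB-231 ranged from -0.017 to 0.094, and the line difference from -0.10 to 0.24 for MVD, -0.43 to 0.17 for CYP51A1, -0.064 to 0.12 for TM7SF2 and -0.024 to 0.10 for ELOVL6. Allowing 1 mismatch in the SRE raised its share to 44.8% of member and 24.5% of all human promoters. The causes were not tested. Depth limits ABCA1, ABCG1, CYP51A1 and mouse Fdps, with few counts each.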
